A study of Mus musculus with 4 samples.

Results

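The antigen response of lungs from mice labelled Pla2g3-/- was measured as the difference between 2 arrays, one hybridised with RNA from antigen-challenged lungs and one with RNA from control lungs. These are 2 of the 4 arrays of the series, and the other pair carries the label Pla2g3+/+. Every array held lung RNA pooled from 4 samples, with 200 ng labelled by Cy3, and strain, age and sex are not stated in the sources used here. The antigen was ovalbumin (OVA). Per the labels, 10 µg OVA with 1.3 mg alum in 0.2 ml saline was injected into the peritoneum on days 0 and 14, and mice inhaled 1% OVA on days 26, 27 and 28, for 30 min each day. Collection of the lungs followed after 48 h. The same protocol is attached to the control samples, and the controls' own treatment is not stated in the sources used here. With 1 array on each side the comparison has no replicate, no p-value and no estimate of the variation between animals, so "higher" and "lower" below describe these 2 pools.

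Group III phospholipase A2, the product of Pla2g3, is a secreted enzyme that releases fatty acids and lysophospholipids from membranes and has been studied in mast cells. Inhaled antigen in a sensitised mouse activates T helper 2 cells, whose cytokines IL-4, IL-5 and IL-13 draw eosinophils into the lung, turn airway cells into mucus-producing goblet cells and steer macrophages to an alternative state. IL-17, IL-1 and CXC chemokines instead recruit neutrophils. IL-4 and IL-13 signal through the transcription factor STAT6, and many inflammatory chemokine genes through NF-kB. Genes needed for cell division often carry CCAAT boxes in their promoters.

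To show what the searched motifs look like before genes that the results name, 6 promoters are printed here, chosen because they hold matches. Each is the 250 bases before the RefSeq start (build GRCm38.p6), written 5′ to 3′ on the gene's strand. Capitals mark every match, on either strand, to 4 motifs: TTC followed after any 4 bases by GAA (bound by STAT6), GGG followed after any 2 bases by TTTCC (an NF-kB form), CCAAT, and TTTGAA (the cell cycle homology element, CHR). The STAT6 form reads the same on both strands. The first 3 genes were among the 15 highest differences in the scanner files, the next 2 were higher in both sources, and Mki67 stands for the cell cycle genes.
Cxcl2, chr5:90903649-90903898, plus strand: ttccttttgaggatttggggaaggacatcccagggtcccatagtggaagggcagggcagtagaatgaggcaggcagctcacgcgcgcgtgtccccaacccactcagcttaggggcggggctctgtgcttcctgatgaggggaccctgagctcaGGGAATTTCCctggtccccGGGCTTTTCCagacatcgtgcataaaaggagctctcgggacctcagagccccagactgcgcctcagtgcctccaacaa
Cxcl3, chr5:90785851-90786100, plus strand: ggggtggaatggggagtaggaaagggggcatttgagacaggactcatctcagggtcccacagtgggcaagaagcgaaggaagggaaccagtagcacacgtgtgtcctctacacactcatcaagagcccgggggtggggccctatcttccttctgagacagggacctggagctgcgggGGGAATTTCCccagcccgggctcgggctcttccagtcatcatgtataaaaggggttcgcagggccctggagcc
Serpina3n, chr12:104406458-104406707, plus strand: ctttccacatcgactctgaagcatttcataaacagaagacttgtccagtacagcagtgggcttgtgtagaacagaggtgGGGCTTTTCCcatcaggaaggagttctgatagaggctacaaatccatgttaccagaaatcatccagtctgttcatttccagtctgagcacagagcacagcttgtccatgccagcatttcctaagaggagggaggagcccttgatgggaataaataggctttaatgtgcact
Ccl17, chr8:94810203-94810452, plus strand: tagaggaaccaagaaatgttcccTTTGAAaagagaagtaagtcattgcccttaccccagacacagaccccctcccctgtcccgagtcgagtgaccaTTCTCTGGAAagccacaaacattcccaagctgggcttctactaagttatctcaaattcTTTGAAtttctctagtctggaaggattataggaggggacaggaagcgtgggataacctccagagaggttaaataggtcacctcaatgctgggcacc
Cd209e, chr8:3854287-3854536, minus strand: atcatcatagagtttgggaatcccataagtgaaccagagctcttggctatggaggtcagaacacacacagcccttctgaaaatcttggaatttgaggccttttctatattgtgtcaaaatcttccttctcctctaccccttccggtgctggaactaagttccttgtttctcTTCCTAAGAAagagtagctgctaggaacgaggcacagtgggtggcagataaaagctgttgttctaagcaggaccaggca
Mki67, chr7:135716380-135716629, minus strand: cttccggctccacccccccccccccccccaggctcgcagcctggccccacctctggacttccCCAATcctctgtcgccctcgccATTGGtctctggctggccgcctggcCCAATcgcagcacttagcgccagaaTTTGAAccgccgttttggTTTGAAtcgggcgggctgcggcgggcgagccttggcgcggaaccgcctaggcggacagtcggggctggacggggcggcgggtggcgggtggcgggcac
Cxcl2 holds the NF-kB letters 97 and 78 bases before its start, Cxcl3 73 bases and Serpina3n 171 bases before it. The STAT6 letters begin 154 bases before the start of Ccl17 and 79 before that of Cd209e. In Mki67 there are 3 CCAAT boxes and 2 CHR matches. Of 27025 genes with a promoter in the RefSeq table, 5.86% had the STAT6 letters in this window, 1.40% the NF-kB letters, 34.5% a CCAAT and 16.3% a CHR. The promoters of Ccl1, Pla2g4c and Alox12e, which lead the genes higher in both sources, held neither the STAT6 nor the NF-kB letters. A match describes letters and is neither a binding site nor a cause.

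The values come in 2 forms, which are kept apart throughout. The scanner files give spot intensity per array, here expressed as log2 relative to the 75th percentile of the array. The authors' value table gives a linear signal per probe, whose 75th percentile is about 1 in each column, here taken to log2. The array and the column that carry one sample name did not give the same profile (r of 0.915 to 0.923 over probes, against 0.986 or more between arrays within a source), and its making is not stated in the sources used here. Between 79.2% and 82.1% of spots or probes were above background on the arrays of either source, and the 75th percentile of the scanner intensity was 1834 on the control and 1979 on the challenged array labelled Pla2g3-/-. The 2 arrays correlated at 0.993 in the table and 0.986 in the scanner files. Pla2g3 itself goes against the labels. Its log2 level in the table was -4.66 and -4.60 on the control and challenged Pla2g3+/+ arrays and -0.20 and 0.06 on the Pla2g3-/- arrays, and in the scanner files it was -3.05 and -2.83 against 0.14 and 1.07. The probe lies at chr11:3394109-3394168 (mm9). The gene's other probe (chr11:3393127-3393186) also goes against the labels. Its table level was -8.38 and -8.07 on the control and challenged Pla2g3+/+ arrays and -4.36 and -4.18 on the Pla2g3-/- arrays. In the scanner files it was -5.49 and -7.11 against -3.37 and -2.56. Which part of the gene was deleted is not stated in the material used. A probe outside that part cannot check the deletion, so the arrays are called KO-labelled and WT-labelled. The cause of the higher Pla2g3 signal on the Pla2g3-/- arrays was not tested. Within the KO-labelled pair Pla2g3 was 0.26 higher after challenge in the table and 0.93 in the scanner files, and its other probe was 0.18 and 0.81 higher.

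Defining markers of lung cells were read in each source, and the sources differed. In the table, Sftpc, which encodes surfactant protein C, a product of alveolar type II cells, had log2 levels of 6.96 (control) and 7.02 (challenged), and Cldn18, a tight junction protein of alveolar type I cells, -0.18 and -0.52. The same probes in the scanner files had -0.71 and -0.26 for Sftpc, while Cldn18 was at background in the control and at -6.89 after challenge. Scgb1a1, the secretory protein of club cells, was near the top of both sources (6.81 and 6.84 in the table, 7.89 and 7.67 in the scanner files). On the KO-labelled control, summed linear levels of the endothelial gene list were 248 in the table and 8.86 in the scanner files. Those of the basal and squamous epithelial list were 4.61 and 164. The reason for this difference in marker levels between the sources was not tested. In bulk RNA, fewer cells of a type and less RNA per cell cannot be told apart, and this holds for every cell type marker below.

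**Figure D1:**
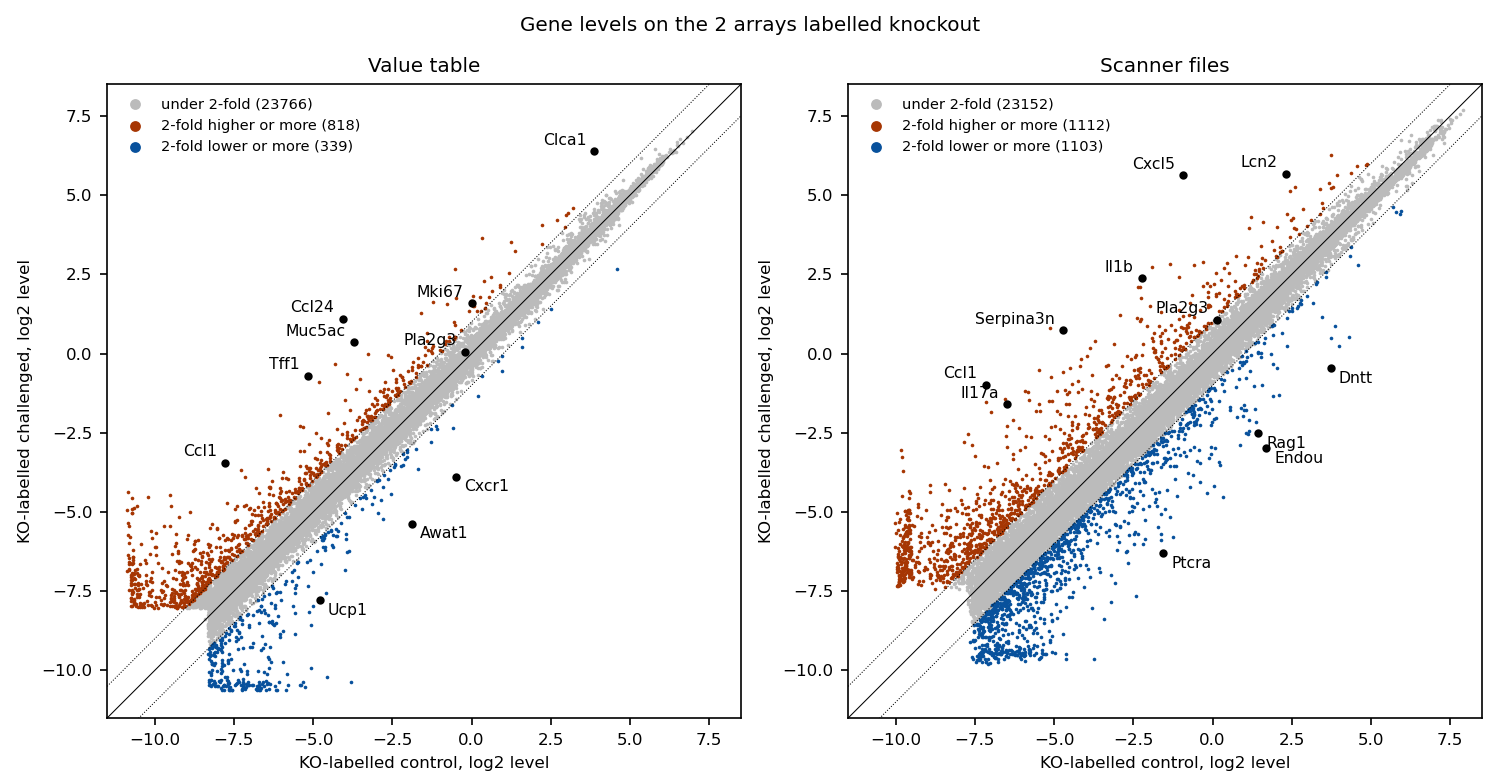
Each point is a gene, with its log2 level on the KO-labelled control array on the horizontal axis and on the KO-labelled challenged array on the vertical axis, both relative to the array's 75th percentile, in the value table (left) and the scanner files (right). Points beyond the dotted lines differ by 2-fold or more: 818 were higher and 339 lower in the table, and 1112 higher and 1103 lower in the scanner files.

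A gene was counted when it differed by 2-fold or more and exceeded background on 1 or both of the 2 arrays. In the table, 818 of 24923 genes were higher after challenge (3.28%) and 339 were lower (1.36%). The scanner files had 1112 of 25367 genes higher (4.38%) and 1103 lower (4.35%). In the WT-labelled pair the shares were 2.36% and 1.10% in the table and 2.40% and 2.02% in the scanner files. These percentages are the background against which the counts of each gene group below are read. The median difference over all genes was 0.02 in the table and -0.06 in the scanner files. Requiring both arrays above background left 487 higher and 115 lower in the table and 699 and 630 in the scanner files, since 555 and 886 of the counted genes had 1 array at background. Normexp background correction with quantile normalization left 426 and 290 in the scanner files. Spots that repeat one probe gave nearly the same difference (median SD 0.03 over 339 probes in the table and 0.04 over 331 in the scanner files), a spread of spot readings that says nothing of the animals. Among counted genes with 2 or more measured probes, every other probe had the same direction for 57 of 64 in the table and 173 of 198 in the scanner files. Every other probe was also at least 2-fold in that direction for 35 of the 64 (54.7%) and 119 of the 198 (60.1%).

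The highest differences in the table were those of Ccl24, Tff1, Ccl1, Retnlb and Muc5ac. Ccl24, a chemokine that attracts eosinophils (probe at chr5:136046667-136046726, mm9), had a log2 level of -4.07 on the control and 1.1 on the challenged array. That is a difference of 5.17, or 36.0-fold, the largest of any gene above background on both arrays whose name was ranked. On the WT-labelled arrays it went from -3.70 to -0.57. Both controls were low, both challenged arrays were high, and the KO-labelled challenged array was the highest of the 4. Next came Tff1, a secreted peptide of mucous epithelia, with -5.17 on the control and -0.70 on the challenged array (4.47, 22.2-fold). Its WT-labelled levels of -4.83 and -0.58 were almost the same. Ccl1, a chemokine for the Th2 receptor Ccr8, had -7.78 and -3.44 (4.34, 20.2-fold). Here the challenged arrays were alike, with -3.52 on the WT-labelled one, and the controls were apart, with -5.13 on the WT-labelled one.

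Retnlb, a resistin-like protein secreted by goblet cells, had table levels of -6.06 and -1.93 (4.13, 17.6-fold), and Muc5ac, the mucin induced in airway goblet cells, -3.71 and 0.36 (4.07, 16.8-fold). The WT-labelled differences were 4.12 and 3.54. Both genes were low on both controls and high on both challenged arrays. The calcium-dependent protease Capn9 differed by 3.99, the lectin receptor Cd209e by 3.91 (-4.82 to -0.90), the cytosolic phospholipase A2 Pla2g4c by 3.58 (-7.26 to -3.68), the lectin Itln1 by 3.26 and the actin-severing protein Scin by 3.25. These 5 genes were also at least 2-fold higher in the WT-labelled pair. Ccl8, a chemokine for Th2 cells, differed by 3.19, and the lipoxygenase Alox15 by 3.13 against 1.54 in the WT-labelled pair. The gluconeogenic enzyme Fbp1 (2.89), the mucus protein Fcgbp (2.85) and the pyrimidine-degrading enzyme Dpys (2.77) completed the 15 highest. Of the 15, all but Dpys were at least 2-fold higher in the WT-labelled pair as well. Dpys was -0.51 there, and the mean of its probes moved its KO-labelled difference to 1.28.

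Genes above background only on the challenged array of the table have a lower bound in place of a fold. The largest were Usp17le, a deubiquitinating enzyme (at least 15.3-fold higher), Obox3, an oocyte homeobox gene (at least 10.8-fold), Pate5 (at least 9.66-fold), Dsg1a, a desmosomal cadherin (at least 9.65-fold), and Tmprss11c, a transmembrane protease (at least 7.79-fold). With the mean of its probes Obox3 differed by 2.94. On the scanner side Usp17le, Pate5, Dsg1a and Tmprss11c were at background on all 4 arrays, and Obox3 was on both KO-labelled arrays. Of the 5, only Tmprss11c was above background on the WT-labelled challenged array of the table.

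Most of the 15 lowest genes in the table followed another pattern, in which the KO-labelled control array stood apart. Among all 339 lower table genes that array alone stood apart for 88 (26.0%). Awat1, an enzyme of wax ester synthesis, had -1.89 on the KO-labelled control and -5.37 on the challenged array, a difference of -3.48, with -6.22 and -4.98 on the WT-labelled control and challenged arrays. Cxcr1, a neutrophil chemokine receptor, had -0.51 and -3.89 (-3.39), with -4.10 and -4.26 on the WT-labelled arrays. For both genes the KO-labelled control was the only high array and the other three were low. The same order held for Cd200r2, of the CD200 receptor family (-2.79 to -5.24), the muscle acetylcholine receptor subunit Chrng (-3.88 to -6.24), the betaine transporter Slc6a12 (-2.34 difference) and the glutamate transporter Slc1a2 (-1.90, or -1.05 with the mean of its probes). Of the 15 lowest genes, the KO-labelled control alone stood apart for 9 and the KO-labelled challenged array alone for 1. That 1 gene was Ucp1, the uncoupling protein of brown fat, at -7.79 on the challenged array against -4.80, -5.19 and -5.39 on the others.

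Sult2a1 and Sult2a4, which sulfate bile acids and steroids, were lower in both pairs. Sult2a1 had -4.40 and -6.05 on the KO-labelled arrays (-1.64) and differed by -2.70 in the WT-labelled pair. Sult2a4 differed by -1.73, and in the WT-labelled pair, where its challenged array was at background, the bound was -1.68. They were the only 2 of the 15 lowest genes to be 2-fold lower in the WT-labelled pair too. Fgg, the gamma chain of fibrinogen, had -0.60 and -2.35 (-1.75) but was 1.0 higher in the WT-labelled pair. On the control side alone, Bhmt2, a methyltransferase of methionine metabolism, was at least 18.9-fold lower after challenge, the homeobox gene Tlx1 at least 7.81-fold and Scgb1b7, of the secretoglobin family, at least 7.57-fold.

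**Figure D2:**
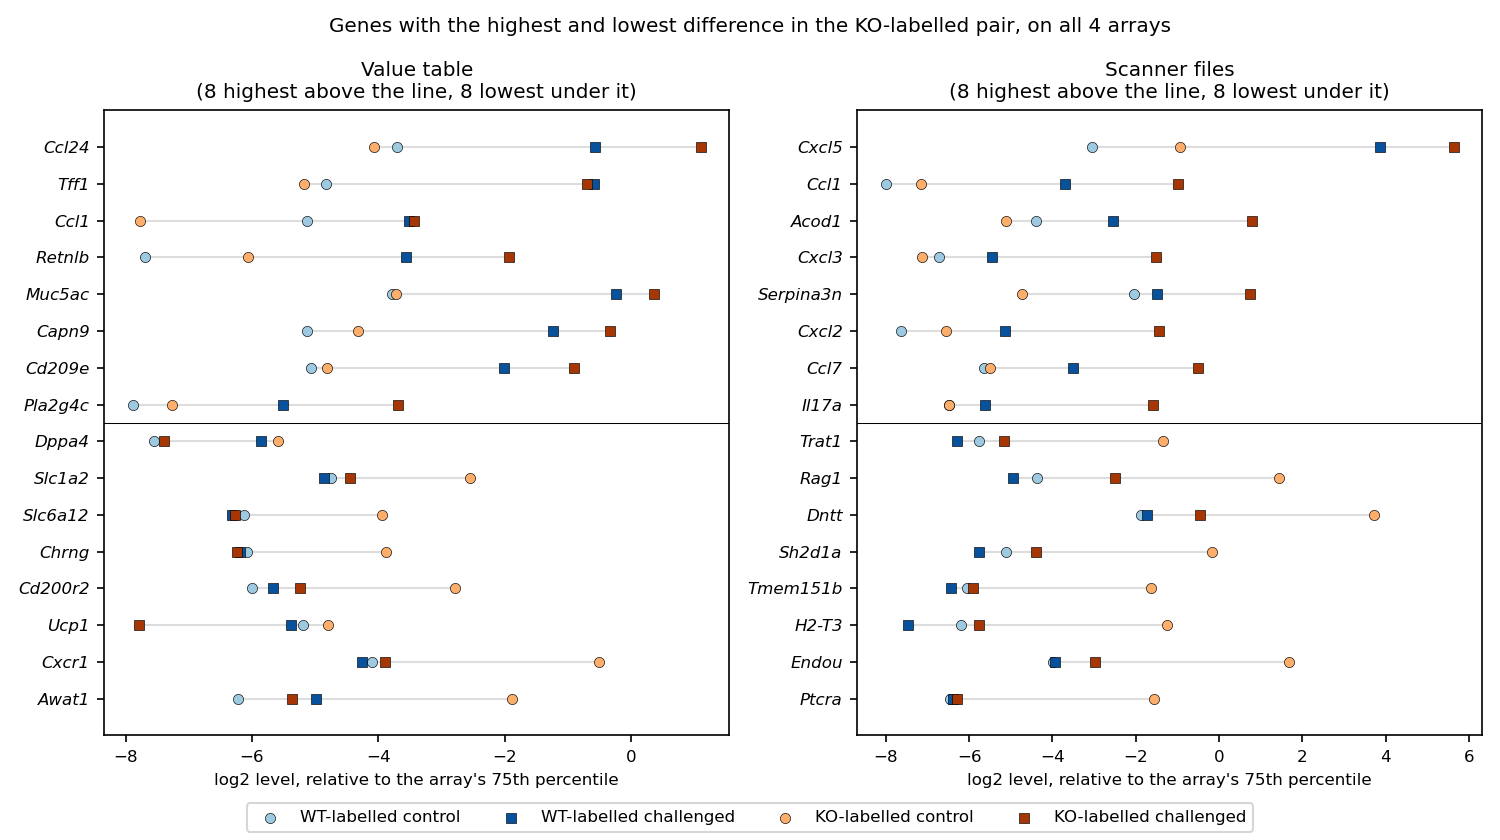
The 8 genes with the highest and the 8 with the lowest difference in the KO-labelled pair are listed for the value table (left) and the scanner files (right), with the log2 level relative to the array's 75th percentile on the horizontal axis and 1 symbol for each of the 4 arrays. Higher genes mostly have both controls (circles) on the left and both challenged arrays (squares) on the right, while for many lower genes, such as Cxcr1 in the table and Dntt in the scanner files, the KO-labelled control (light orange) lies alone on the right.

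The highest differences in the scanner files were those of Cxcl5, Ccl1, Acod1, Cxcl3 and Serpina3n. Cxcl5, an epithelial chemokine that attracts neutrophils (probe at chr5:91190490-91190549, mm9), had -0.93 on the control and 5.63 on the challenged array, a difference of 6.56 (94.6-fold). The WT-labelled arrays had -3.06 and 3.87. Both challenged arrays were far above both controls, and the pairs differed little in the size of the gap (6.56 against 6.93). Ccl1 was again among the first, with -7.15 and -0.98 (6.17, 72.2-fold). Acod1, the itaconate-forming enzyme of activated macrophages, had -5.12 and 0.80 (5.92, 60.7-fold), and differed by 1.83 in the WT-labelled pair. For Acod1 the KO-labelled challenged array was well above the WT-labelled one, at -2.56.

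Cxcl3 had scanner levels of -7.15 and -1.52 (5.62, 49.3-fold), and Cxcl2 -6.55 and -1.44 (5.12, 34.7-fold). Both are ligands of the neutrophil receptor Cxcr2. The WT-labelled difference was 1.27 for Cxcl3 and at least 2.51 for Cxcl2, whose WT-labelled control was at background. Serpina3n, a protease inhibitor of the acute phase, had -4.73 and 0.74 (5.47, 44.4-fold), while the WT-labelled arrays had -2.05 and -1.49. Its KO-labelled control was the lowest and its KO-labelled challenged array the highest of the 4. Il17a, the cytokine of Th17 and gamma delta T cells, had -6.49 and -1.58 (4.90, 29.9-fold) against -6.50 and -5.62 on the WT-labelled arrays. For Il17a the KO-labelled challenged array alone was high.

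Among the rest of the 15 highest were Il1b, a cytokine of activated myeloid cells (-2.23 to 2.39, 24.5-fold), the serum amyloid Saa3 (-1.90 to 2.73), the monocyte chemokine Ccl7 (4.98), the interferon-induced chemokine Cxcl10 (4.38) and Ccl17, a chemokine for Ccr4 on Th2 cells (-2.36 to 2.09, 21.8-fold). Apart from Serpina3n and Il17a, the other 13 also differed by 2-fold or more in the WT-labelled pair, on the same side. Normexp correction moved Ccl1 to 3.85, Cxcl3 to 3.23, Cxcl2 to 3.10 and Il17a to 3.25, and left Cxcl5 at 6.58. All 15 stayed 2-fold higher under it.

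Some genes were above background only on the challenged scanner array. Il5, the growth factor of eosinophils, was at least 36.5-fold higher, Il6 at least 26.6-fold, and Il13, the cytokine that drives goblet cells, at least 25.7-fold. Il1f9, an epithelial cytokine of the IL-1 family, was at least 22-fold higher and the lectin-like receptor Olr1 at least 16.1-fold. These bounds rest on the scanner's own background subtraction and on the lowest signal above background of the whole array. The scanner flags each spot separately, so that signal is not the detection limit of each probe, and the fold can be smaller. Normexp correction gave smaller differences: 6.38-fold for Il5, 4.68-fold for Il6, 5.70-fold for Il13, 4.39-fold for Il1f9 and 3.54-fold for Olr1. Il5 and Il13 were at background on both controls and above it on both challenged arrays.

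The 15 lowest scanner genes included genes of T cells and of developing thymocytes, and all 15 had their highest level on the KO-labelled control. Ptcra, the pre-T cell receptor alpha chain of immature thymocytes (probe at chr17:46892827-46892886, mm9), had -1.55 on that control and -6.30 after challenge, a difference of -4.75, or 26.9-fold (-2.94 under normexp). The WT-labelled arrays had -6.47 and -6.39, so the KO-labelled control alone was high. Dntt, the terminal transferase that adds bases during antigen receptor assembly (probe at chr19:41133936-41133995, mm9), had 3.72 and -0.45 (-4.18, 18.1-fold), with -1.87 and -1.72 on the WT-labelled arrays. Rag1, the recombinase of the same process, had 1.43 and -2.51 (-3.94), with -4.37 and -4.95. Cd8a, the CD8 coreceptor, had 0.22 and -3.51 (-3.73), with -4.06 and -4.90.

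The remaining 11 of the lowest 15 scanner genes included the endoribonuclease Endou (1.68 to -2.98), the nonclassical MHC gene H2-T3 (-4.52 difference), the signalling adaptor Sh2d1a (-4.22), and the transcription factors Tcf7 (-3.72), Bcl11b (-3.63) and Lef1 (-3.59). Differences in the WT-labelled pair ran from -1.35 for Lef1 to 0.15 for Dntt among the genes named here. Only H2-T3 and Lef1 were 2-fold lower in both pairs. By table values, 2 of the 15 were counted as 2-fold higher in the KO-labelled pair: Syt13 (1.14) and Ptcra. Ptcra was at background on the control, with a difference of 1.00 and a bound of only 1.46-fold. Its difference was under 2-fold after quantile normalization (0.80) and after centring on the median (0.96). Rag1 was at background on all 4 table arrays, and the other 12 differed by under 2-fold, for example Tcf7 by -0.11 and Dntt by 0.26.

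The counted genes were then described by the position of the 4 arrays. Of the 818 higher table genes, 653 (79.8%) were above 0 in the WT-labelled pair and 156 (19.1%) were at least 2-fold higher there. The KO-labelled challenged array alone stood apart for 164 (20.0%) and the KO-labelled control alone for 58 (7.09%). Of the 339 lower table genes, 122 (36.0%) were below 0 in the WT-labelled pair, 26 (7.67%) were 2-fold lower in the WT-labelled pair, and 49 (14%) were 2-fold higher there. The KO-labelled control alone stood apart for 88 (26.0%) of them. Of the scanner files' 1112 higher genes, 221 (19.9%) were 2-fold higher in the WT-labelled pair and of the 1103 lower genes 129 (11.7%) were 2-fold lower there. The sign was the same in the WT-labelled pair for 65.3% and 68.4% of them. The KO-labelled control alone stood apart for 302 (27.4%) of the lower scanner genes and the KO-labelled challenged array alone for 364 (32.7%) of the higher ones. Across genes the differences of the pairs correlated at 0.28 (24543 genes) in the table and 0.29 (24882 genes) in the scanner files. Genes are not independent replicates.

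**Figure D3:**
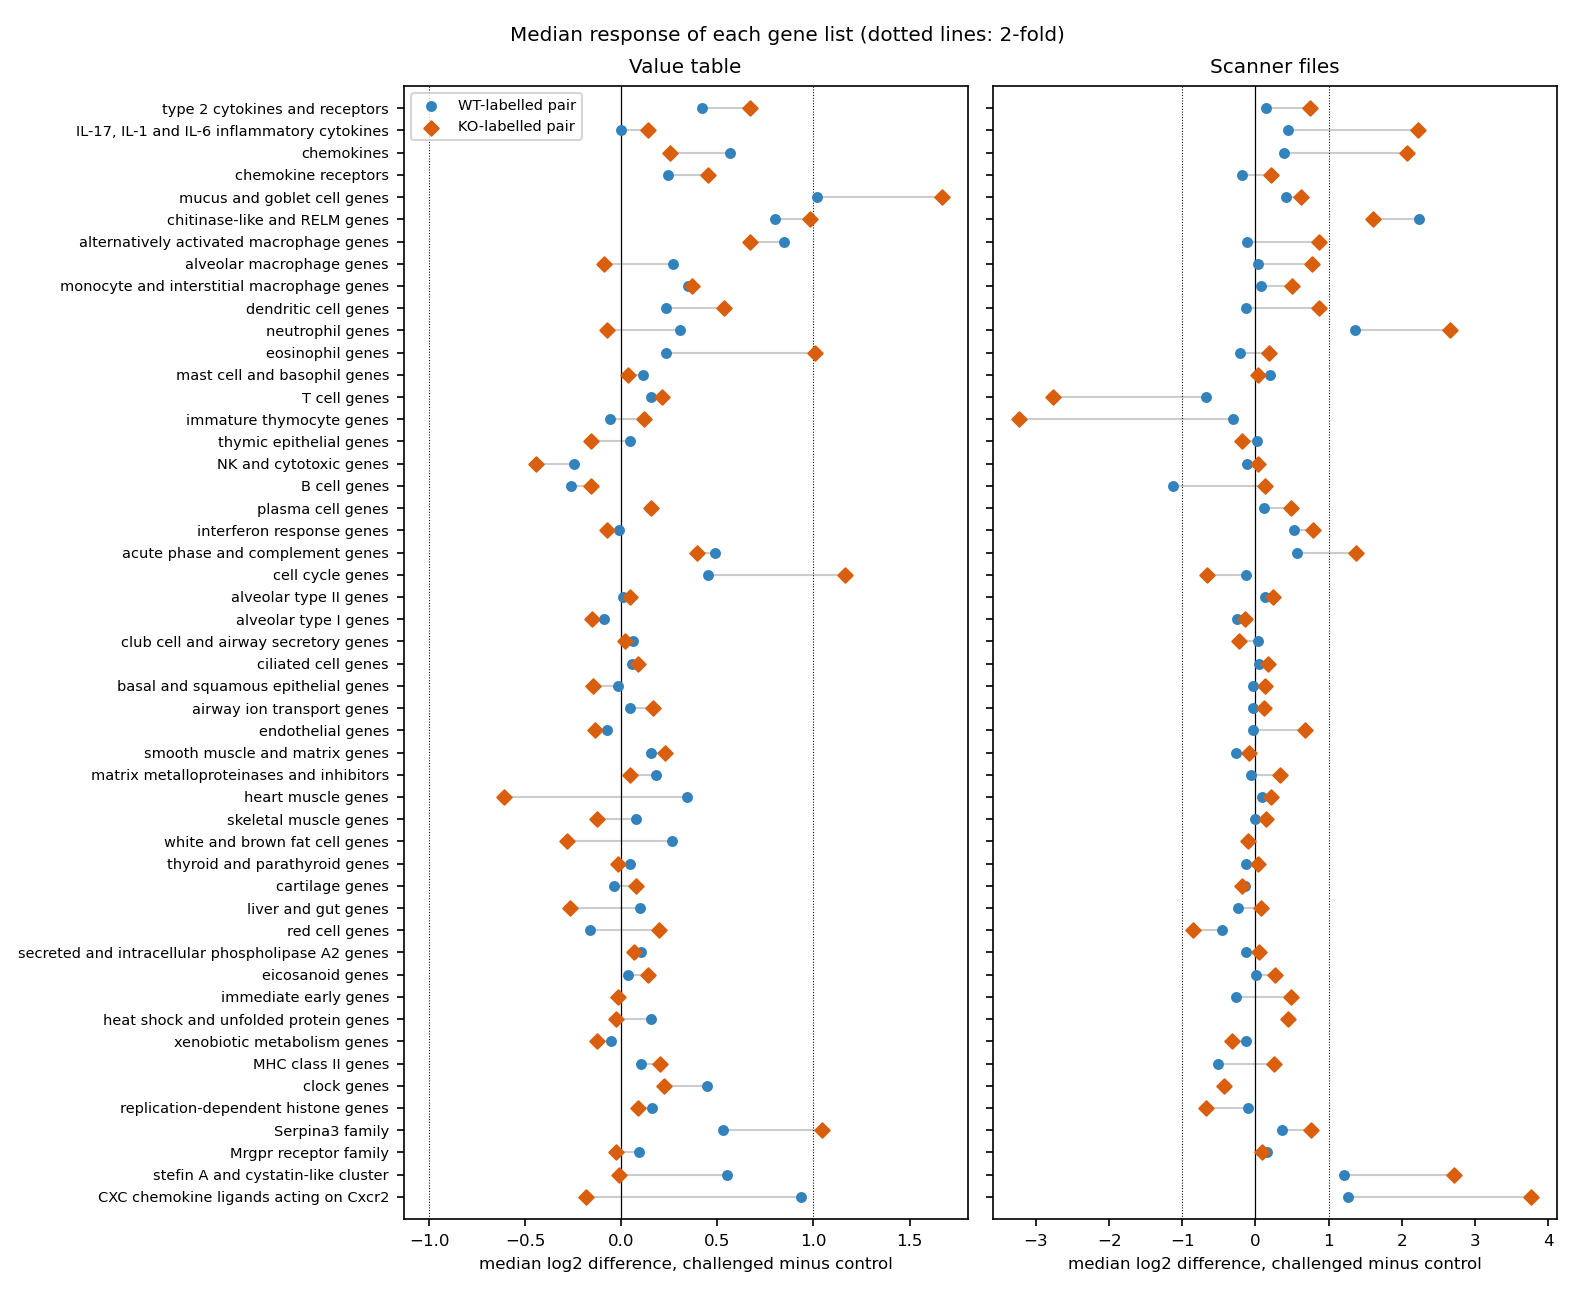
Each row is a gene list, and the horizontal axis is the median log2 difference, challenged minus control, of its measured members in the KO-labelled pair (diamonds) and the WT-labelled pair (circles), in the value table (left) and the scanner files (right). The KO-labelled medians reach 1.67 for mucus genes in the table, and 2.65 for neutrophil and -3.24 for immature thymocyte genes in the scanner files.

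Type 2 cytokines and receptors were higher in both sources. Of 17 in the table, 8 were at least 2-fold higher and 0 lower (median 0.67, against 0.42 in the WT-labelled pair). Il13 had -6.37 and -4.21 (2.16), the interleukin 33 receptor Il1rl1 -1.27 and 0.08 (1.35), Il4 -4.82 and -3.79 (1.03) and Il5 -5.04 and -4.01 (1.02, or 0.94 after quantile normalization, under 2-fold). Of 18 in the scanner files, 9 were higher and 1 lower (median 0.75). Il4 differed by 2.02 there, Csf2, a growth factor of granulocytes and macrophages, by 2.85, and Il9 was at least 5.91-fold higher. Under normexp 4 of the 18 were higher and the median was 0.40, with Il4 at 0.93, Csf2 at 0.96 and Il9 at 0.69, all under 2-fold. The 1 lower member was Gata3, the Th2 and T cell transcription factor, with -0.71 and -3.06, whose KO-labelled control was the highest of the 4 arrays, as for the T cell genes above.

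In the IL-17, IL-1 and IL-6 group 9 of 16 genes were higher and 0 lower in the scanner files (median 2.22, or 0.89 with 7 higher under normexp), and 1 of 16 was higher and 0 lower in the table (median 0.14). By scanner values, besides Il17a, Il1b and Il6, Il1a was at least 5.12-fold higher, the granulocyte growth factor Csf3 at least 7.76-fold, and Tnf differed by 1.94 (-3.29 to -1.35). Normexp correction brought Il1a to 0.87 and Csf3 to 0.92, under 2-fold. In the table Il1b had -0.04 and -0.11, Il6 differed by 0.38, and the 1 higher gene was Csf3, at least 2.04-fold. The WT-labelled pair had medians of 0.44 (scanner) and 0.00 (table). For 5 of the 9 higher scanner genes the KO-labelled challenged array alone stood apart.

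Of 30 chemokine genes in the scanner files, 22 were 2-fold or more higher and 0 lower (median 2.06). In the WT-labelled pair there, 14 of 29 were higher and 2 lower (median 0.39). Of 30 in the table, 11 were higher and 2 lower (median 0.26). The WT-labelled pair of the table also had 11 of 30 higher, with 0 lower (median 0.57). The table's higher members were led by Ccl24, Ccl1 and Ccl8, with Ccl17 (-0.49 to 1.75), Ccl11, an eosinophil chemokine (-2.48 to -0.50), and the interferon-induced Cxcl9 (-3.83 to -1.78). Its 2 lower members were Cxcl3, with -2.78 and -4.22, and Ccl3, a chemokine of activated macrophages, with -1.29 and -2.38. Both were far higher after challenge in the scanner files (5.62 and 4.06). The 7 CXC ligands of Cxcr2, a list written after values were seen, had a scanner median of 3.77 with 6 higher, and a table median of -0.18 with 0 higher and 1 lower. In the WT-labelled pair the same 7 had a scanner median of 1.27 with 5 higher, and a table median of 0.93 with 3 higher.

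Mucus and goblet cell genes were higher in the table. Of 23 measured, 15 were at least 2-fold higher and 0 lower, and the median was 1.67 against 1.02 in the WT-labelled pair. The list's median level was -0.70 on the KO-labelled control and 0.36 on the challenged array, and -0.36 and 0.15 on the WT-labelled arrays. Clca1, a secreted goblet cell protein, had 3.88 and 6.38 (2.5), Agr2, a mucin-folding isomerase, -0.79 and 1.57 (2.36), and Slc26a4, an anion exchanger, 1.37 and 3.24 (1.86). Foxa3 and Spdef, transcription factors of goblet cells, differed by 1.73 and 1.40, the trefoil peptide Tff2 by 1.67 and the mucin Muc5b by 1.52. The scanner files had 6 of 23 higher and 1 lower, with a median of 0.63. Clca1 was already high on the KO-labelled control there (6.26, and 6.89 after challenge), above the WT-labelled control at 4.83. Slc26a4 had -6.28 and -2.09 (4.19, or 2.37 under normexp). The 1 lower gene was the trefoil peptide Tff3, at background after challenge and at least 7.17-fold lower, or -0.97 under normexp, which is under 2-fold.

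Genes of the chitinase-like and resistin-like families, secreted by macrophages and epithelium in type 2 inflammation, were higher for 5 of 10 members in each source, with medians of 0.98 in the table and 1.60 in the scanner files (0.84 under normexp). In the WT-labelled pair 4 of 10 were higher in the table (median 0.80) and 7 of 10 in the scanner files (median 2.23). Chil4 had 1.24 and 3.51 in the table but 2.46 and 2.55 in the scanner files. Retnla had 5.80 and 6.47 in the table and 3.73 and 6.25 in the scanner files. On both KO-labelled controls Chil4 was above the WT-labelled control (-0.05 in the table and -1.52 in the scanner files). Alternatively activated macrophage genes were at least 2-fold higher for 8 of 19 in each source (medians 0.67 and 0.86), and for 3 of the scanner's 19 under normexp. The WT-labelled pair had 8 of 19 higher in the table (median 0.84), and 3 higher and 1 lower of 19 in the scanner files (median -0.12). Arg1, which degrades arginine, had -2.39 and -0.91 in the table (1.48) and -4.11 and -2.61 in the scanner files (1.5). The mannose receptor Mrc1 differed by 0.60 and 1.01 (scanner, 0.85 under normexp).

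Eosinophil genes were higher in the table. Of 14 in the table, 7 were at least 2-fold higher and 0 lower (median 1.01, against 0.23 in the WT-labelled pair). Prg2, the major basic protein, had -4.54 and -1.87 (2.66), whereas the WT-labelled arrays had -2.09 and -2.10. Here the KO-labelled control was low and the other three were close together. Epx, the eosinophil peroxidase, had -8.05 and -5.52 (2.52), with the KO-labelled challenged array alone high. Cebpe, a transcription factor of granulocytes, had -2.64 and -0.04 (2.61), Ccr3, the eotaxin receptor, -3.92 and -2.48 (1.43), and Siglecf, a surface lectin of eosinophils and alveolar macrophages, 0.33 and 0.04. Of 12 in the scanner files, 0 were higher and 1, Prg2, was lower (-1.04, or -0.34 under normexp), with a median of 0.19, and Epx was at background on all 4 arrays.

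Neutrophil genes were higher in the scanner files. Of 23 in the scanner files, 16 were 2-fold or more higher and 1 lower (median 2.65), and in the WT-labelled pair 12 were (median 1.36). The list's median level was -3.95 on the KO-labelled control and -1.0 on the challenged array. Lcn2, an iron-sequestering protein of neutrophils and epithelium, had 2.32 and 5.68 (3.36), and the granule proteins S100a8 and S100a9 had 1.16 and 3.97 and 2.60 and 5.25. Cxcr2 had -4.52 and -1.20 (3.32), the collagenase Mmp8 -6.12 and -2.34 (3.78, or 2.38 under normexp), and the lectin receptor Clec4e -3.95 and -0.07 (3.88), the last against 0.08 in the WT-labelled pair. Of 23 in the table, 1 was higher, the resistin-like Retnlg (1.17 to 2.55), and 1 lower, Cxcr1, and the median was -0.07. S100a8 had 3.06 and 2.62 there and Lcn2 3.45 and 3.70.

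**Figure D4:**
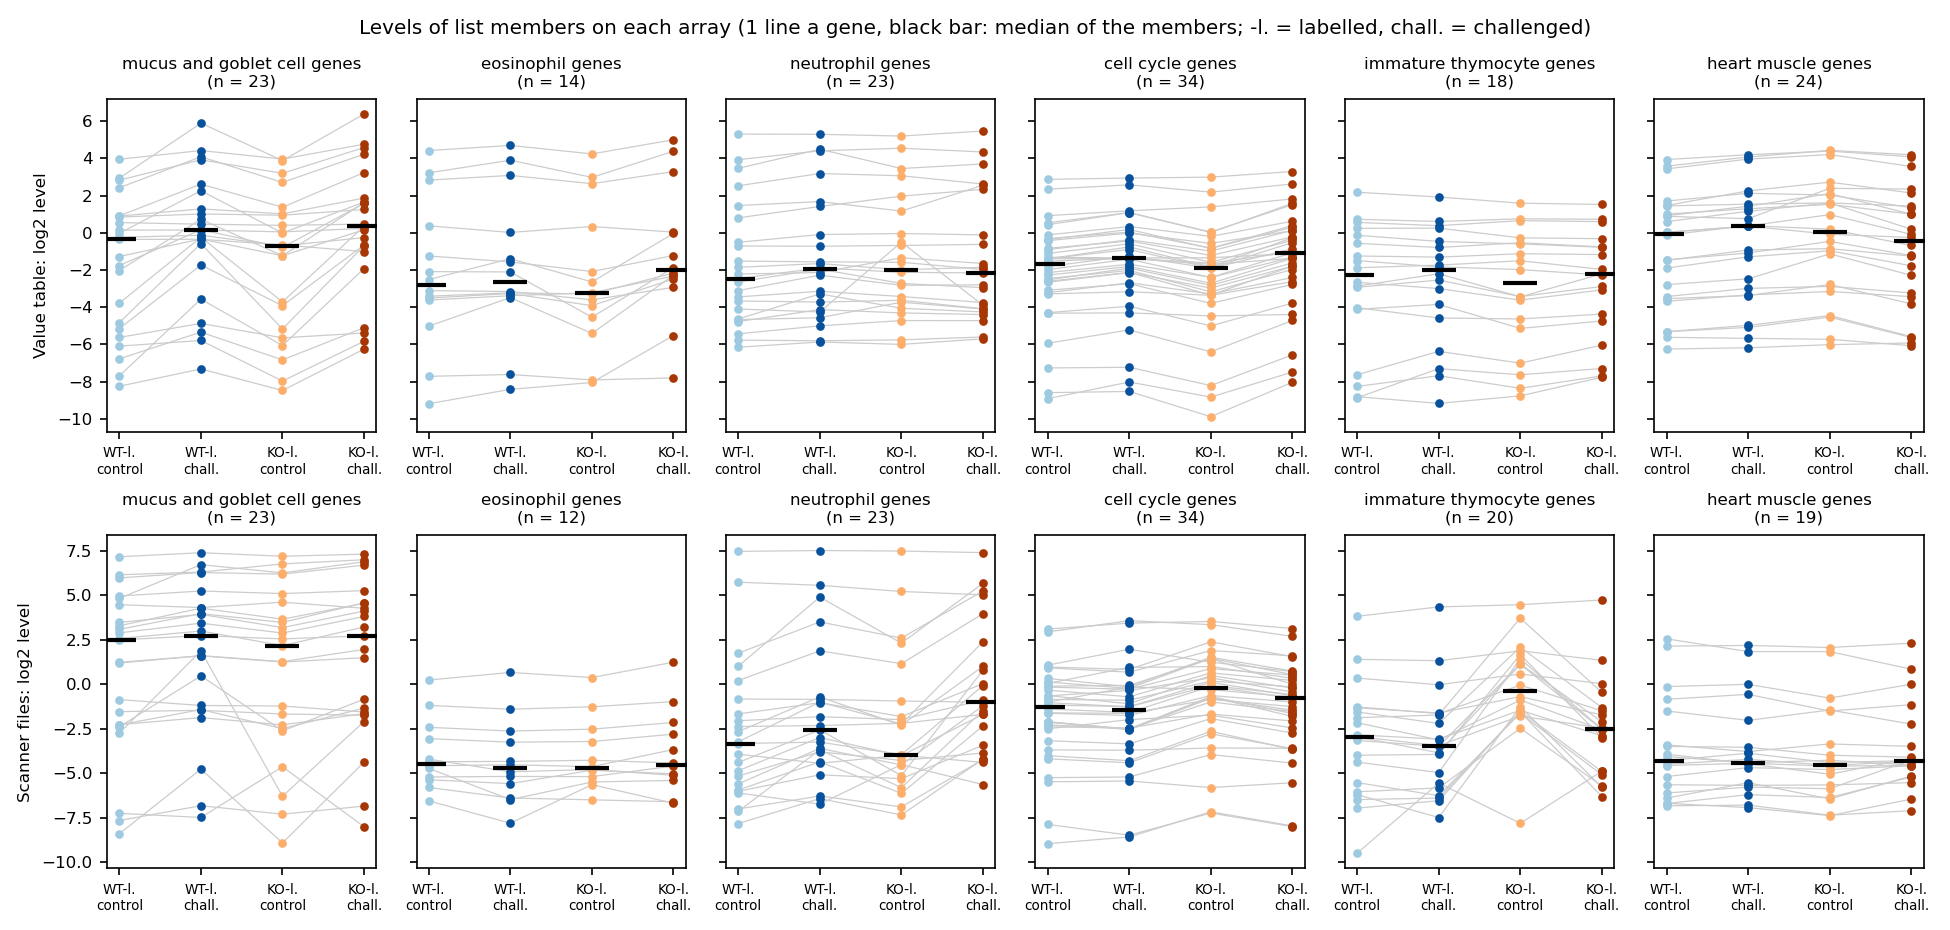
Each column of panels is a gene list, with 1 line a gene joining its log2 level (vertical axis, relative to the array's 75th percentile) on the 4 arrays, and the black bar is the median of the measured members; the value table is above and the scanner files below. The immature thymocyte genes of the scanner files stand high on the KO-labelled control alone (median -0.36, against -2.94, -3.46 and -2.52 on the other arrays), and the neutrophil genes stand highest on the KO-labelled challenged array (-1.0).

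T cell genes were lower in the scanner files. Of 25, 19 were at least 2-fold lower and 0 higher (median -2.76), and in the WT-labelled pair 4 were lower (median -0.68). The list's median level was 0.76 on the KO-labelled control and between -3.18 and -2.29 on the other 3 arrays. Lck, the kinase of the T cell receptor, had 3.73 and 0.49 (-3.24), against 0.07 and -0.51 on the WT-labelled arrays, and Cd3e, a receptor chain, had 1.90 and -0.31. Cd4 differed by less (1.89 and 1.35). Of 25 in the table, 2 were higher and 0 lower, and Lck had 1.34 and 1.47.

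Immature thymocyte genes showed the same order more strongly, with 15 of 20 lower and 1 higher in the scanner files (median -3.24, and -0.31 in the WT-labelled pair) and 2 of 18 higher and 0 lower in the table (median 0.12). The 1 higher scanner gene was Tdo2, a tryptophan-degrading enzyme, at background on the control and at least 7.14-fold higher, or 0.83 under normexp. Markers of thymic epithelium were given beside them as measured values. Of 13 in the scanner files, 2 were lower and 0 higher (median -0.19): Foxn1, the thymic epithelial transcription factor, was at least 4.38-fold lower and the thymic protease Prss16 had -3.07 and -4.25. Under normexp neither was 2-fold lower (-0.56 and -0.77). Psmb11, the thymoproteasome subunit, had -5.51 and -5.29, and Aire, which drives display of tissue antigens, -5.80 and -5.60. Summed linear levels of the 13 thymic epithelial genes were 184, 172, 183 and 160 on the WT-labelled control, KO-labelled control, WT-labelled challenged and KO-labelled challenged arrays. Prss16, Psmb11 and Aire, at -3.07 or lower on the KO-labelled control, add little to that sum. The list also holds Krt8, Cldn3, Cldn4 and Krt5, the last a member of the basal and squamous list too. The sum therefore cannot show how thymic markers at such low levels changed. Summed levels of the 20 immature thymocyte genes were 20.5, 59.7, 25.8 and 33.5 in the same order. In the table Foxn1 and Psmb11 were at background on all 4 arrays. The part of thymic tissue in the lower T cell genes was not tested.

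Other lymphocyte lists differed less in the KO-labelled pair. B cell genes had 0 of 20 higher or lower in either source, with medians of -0.16 in the table and 0.12 in the scanner files. In the WT-labelled scanner pair 12 of 20 were lower (median -1.12). NK and cytotoxic genes had 0 of 20 counted in the table, with 17 below 0 and a median of -0.44, and 1 higher and 2 lower of 18 in the scanner files. Mast cell and basophil genes had 3 of 16 higher in the table and 1 of 17 in the scanner files, with 0 lower and medians of 0.04 and 0.03. Plasma cell genes had 0 of 11 counted in the table and 2 of 11 higher in the scanner files (median 0.48). Under normexp the mast cell list had 0 higher, the plasma cell list 1, and the NK list 0 higher and 1 lower.

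Cell cycle genes had medians of opposite sign in the sources. Of 34 in the table, 22 were at least 2-fold higher and 0 lower, and all 34 measured were above 0, with a median of 1.16 against 0.45 in the WT-labelled pair, where 0 were counted. Mki67, a marker of dividing cells, had 0.01 and 1.58 (1.57), with 0.54 and 1.09 on the WT-labelled arrays. Top2a, the topoisomerase of dividing cells, had -3.35 and -1.80 (1.55), and the mitotic kinase Cdk1 -2.71 and -1.37 (1.34). For each of the 3 genes the KO-labelled control was the lowest and the KO-labelled challenged array the highest of the 4. Of 34 in the scanner files, 0 were higher and 3 lower (1 under normexp), with 1 above 0 and a median of -0.66. Mki67 had 1.47 and 0.55 there and Rrm2, the ribonucleotide reductase subunit, 1.44 and 0.00 (-1.44). The scanner median level was -0.20 on the KO-labelled control, above -1.27 and -1.42 on the WT-labelled arrays, and immature thymocyte genes were highest on that array too. Their part in the cell cycle difference was not tested. Replication-dependent histone genes, a list written after values were seen, had 8 of 31 lower and 0 higher in the scanner files (median -0.68, 5 lower under normexp) and 3 of 31 higher in the table (median 0.09).

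Acute phase and complement genes were higher for 13 of 23 in the scanner files (median 1.37, 0.57 in the WT-labelled pair) and 6 of 23 in the table (median 0.40, 0.49), with 0 lower in either. Saa3 had 0.04 and 1.83 in the table, and the serum amyloid Saa1 -1.37 and 0.10. The scanner levels of Saa1 were -1.64 and 1.33, and the pentraxin Ptx3 was at least 6.45-fold higher (0.86 under normexp, under 2-fold). Members of the Serpina3 family of protease inhibitors, a list written after values were seen, were higher for 5 of 9 in the table and 4 of 10 in the scanner files, with 1 lower (0 lower under normexp). Serpina3f had -3.14 and -1.58 in the table and -6.47 and -2.29 in the scanner files (2.37 under normexp), and Serpina3g 0.61 and 2.41 and -1.33 and 2.84. Interferon response genes had 10 of 31 higher in the scanner files (median 0.78) and 2 of 32 in the table (median -0.07), with 0 lower in either.

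Macrophage, dendritic and monocyte lists had positive medians in the scanner files. Alveolar macrophage genes were higher for 8 of 18 there (median 0.78) and for 0 of 18 in the table, with 1 lower (median -0.09). Dendritic cell genes were higher for 6 of 21 (median 0.86) and 5 of 22 in the table (median 0.54), with 0 lower. Monocyte and interstitial macrophage genes were higher for 3 of 18 in each source, with 0 lower in the scanner files (median 0.50) and 1 lower in the table (median 0.37). Under normexp 5 of the alveolar macrophage, 4 of the dendritic cell and 1 of the monocyte genes were higher in the scanner files. In the same order, the WT-labelled medians of these lists were 0.04, -0.13 and 0.08 in the scanner files and 0.27, 0.23 and 0.35 in the table. MHC class II genes had 0 of 11 counted in either source, with medians of 0.20 and 0.25.

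Of 17 alveolar type II and 15 alveolar type I genes 0 differed by 2-fold in the table, with medians of 0.04 and -0.15. Among scanner values 4 type II genes were higher and 1 lower (median 0.23), and 2 type I genes were higher and 1 lower (median -0.14). Endothelial genes were at least 2-fold higher for 10 of 25 in the scanner files (median 0.68, or 3 higher and 0.25 under normexp) and 3 of 28 in the table (median -0.14), with 0 lower. The clotting factor carrier Vwf had scanner levels of -0.83 and 0.80, and the junction protein Cdh5 -6.13 and -4.59 (0.68 under normexp, under 2-fold). For both, the KO-labelled control was the lowest of the 4 arrays. It alone stood apart for 6 of the 10, against 51 (4.59%) of all 1112 higher scanner genes. Ciliated cell genes had 0 of 26 counted in the scanner files and 2 of 26 higher in the table. Smooth muscle and matrix genes had 0 of 25 counted in the table and 1 of 24 lower in the scanner files. Immediate early genes, whose transcription follows stress or stimulation within minutes, were higher for 7 of 26 in the scanner files (median 0.49) and lower for 1 of 26 in the table (median -0.02). Fos had 0.98 and 2.07 in the scanner files and -0.05 and -0.58 in the table.

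Heart muscle genes were lower in the table. Of 24, 7 were at least 2-fold lower and 0 higher, 23 were below 0, and the median was -0.61 against 0.34 in the WT-labelled pair. Nppa, the atrial natriuretic peptide, had 1.60 and 0.19 (-1.41), with 0.60 and 1.15 on the WT-labelled arrays, and Myl7, the atrial myosin light chain, 2.10 and 1.0, with 0.91 and 1.42. For both, the KO-labelled control was the highest. Summed linear levels of the list were 58.5 and 96.8 on the WT-labelled and KO-labelled controls and 77.6 and 71.0 on the challenged arrays. Fat cell genes had 2 of 22 lower (median -0.28), namely Ucp1 and Pck1, the gluconeogenic enzyme, which had -3.69 and -4.79. Heart muscle genes of the scanner files had 3 of 19 higher and 0 lower (median 0.22), with 0 higher under normexp. The part of attached tissue was not tested.

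Red cell genes were lower for 6 of 13 in the scanner files and higher for 0 (median -0.85, or 3 lower and -0.48 under normexp), with Alas2, the first enzyme of heme synthesis in red cells, at 2.97 and 1.81 and the beta globin Hbb-b1 at 4.37 and 3.36. Near-identical globin genes can share a probe. Of 13 in the table, 1 was higher, Ahsp, which stabilises alpha globin (-0.54 to 0.99), and 0 were lower.

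Phospholipase A2 genes, the family of the gene named in the labels, had medians near 0 (0.07 in the table and 0.04 in the scanner files). Of 20 in the table, 2 were higher and 0 lower: Pla2g4c and the secreted Pla2g10 (-6.59 to -4.70). Of 19 in the scanner files, 3 were higher and 1 lower (2 and 0 under normexp), with Pla2g4c at -3.30 and -0.35 and Pla2g7, which cleaves platelet-activating factor, at -1.63 and -0.60. Pla2g7 also differed by 0.99 in the table. Eicosanoid genes, which make or sense prostaglandins and leukotrienes, had 3 of 32 higher in the table and 6 of 31 higher and 2 lower in the scanner files (3 and 1 under normexp). Alox12e, an epidermal-type lipoxygenase, had -4.91 and -2.5 in the table and 1.60 and 4.15 in the scanner files, and was also higher in both WT-labelled pairs (1.58 and 2.04). Ptgs2, the inducible cyclooxygenase, had -3.36 and -0.40 in the scanner files (2.96) and -1.39 and -1.20 in the table. The thromboxane receptor Tbxa2r had -2.19 and -4.90 in the scanner files, with the KO-labelled control the highest of the 4 arrays.

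The sources were compared gene by gene over the 23649 genes tested in both. Their differences in the KO-labelled pair correlated at 0.02 across genes. Of these genes 577 were 2-fold higher in the table and 806 in the scanner files, and 100 were higher in both (0.423%), which is 17.3% of the table's and 12.4% of the scanner's. Another 20 were lower in both (0.0846%), or 12% and 2.49%. In opposite directions were 97 genes: 65 higher in the table and lower in the scanner files, and 32 the reverse.

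**Figure D5:**
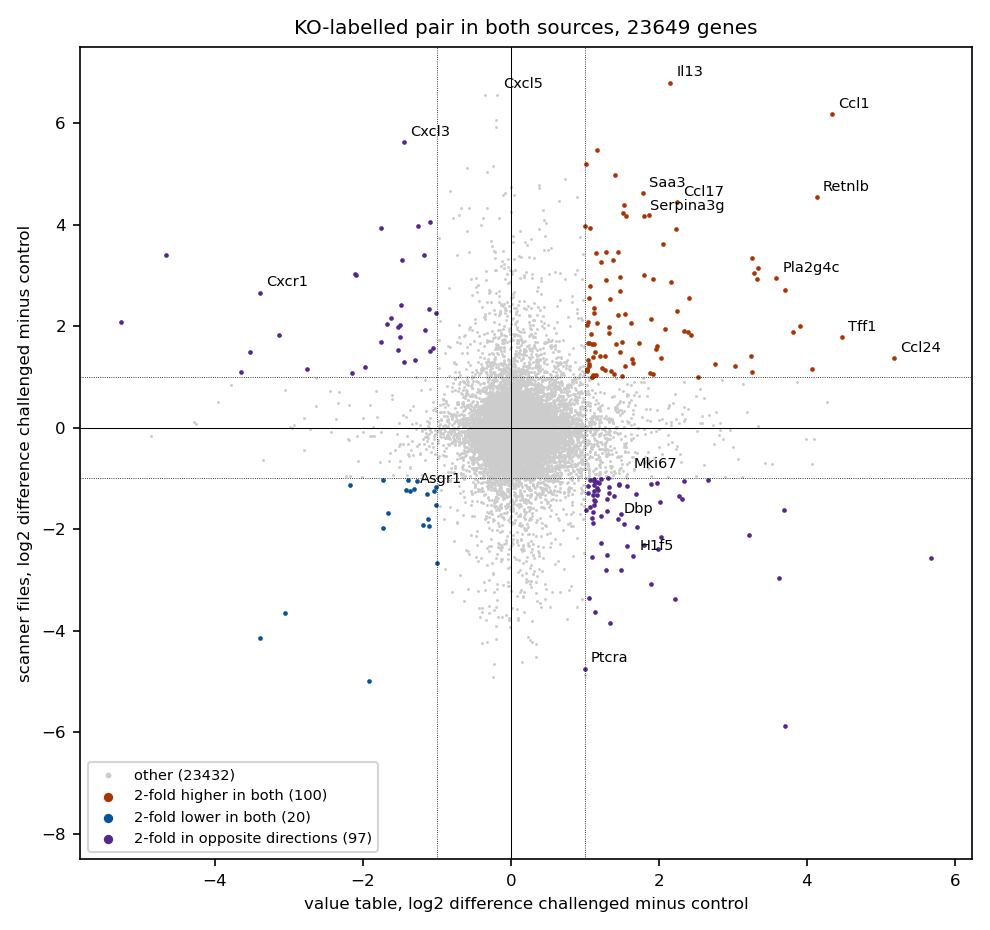
Each point is 1 of the 23649 genes tested in both sources, with the log2 difference of the KO-labelled pair in the value table on the horizontal axis and in the scanner files on the vertical axis. The 100 genes 2-fold higher in both lie at the upper right, the 20 lower in both at the lower left and the 97 opposed genes in the other corners, and the cloud as a whole has no slope (r = 0.02).

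Genes higher in both sources and above background on all 4 measurements numbered 57. Ranked by the smaller difference, they were led by Ccl1 (4.34 in the table and 6.17 in the scanner files), Pla2g4c (3.58 and 2.95), Alox12e (2.41 and 2.55) and Ccl17 (2.24 and 4.44). Cxcl9 (2.05 and 3.62), Cd209e (3.91 and 2.0, the latter 0.71 under normexp, which ends the call), the macrophage protein Cd5l (2.09 and 1.94), the secreted Fam3b (2.33 and 1.91), the metalloproteinase inhibitor Timp1 (1.90 and 2.13) and Slc26a4 (1.86 and 4.19) followed. Timp1 had 0.40 and 2.29 in the table and -1.05 and 1.09 in the scanner files, and was also higher in the WT-labelled pair (0.99 and 1.03). The adrenergic receptor Adra2a, Serpina3g, Btbd17, Saa3 and Tff1 completed the first 15. Cd5l differed by 2.91 in the table and -1.85 in the scanner files in the WT-labelled pair.

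There were 3 such genes lower in both: the meiotic gene Syce1 (-1.41 and -1.23), the hepatic lectin Asgr1 (-1.31 and -1.21) and the homeobox gene Lhx2 (-1.27 and -1.05). Asgr1 had -1.09 and -2.40 in the table and 0.95 and -0.26 in the scanner files. In the WT-labelled pair it differed by -1.22 and -0.83. Under normexp the scanner values of Syce1 (-0.96) and Lhx2 (-0.33) were under 2-fold, and Asgr1 stayed at -1.16. Of the opposed genes above background throughout, 22 were higher in the table and 7 lower. The linker histone H1f5 had 1.66 and -2.53, the DNA repair enzyme Neil3 1.48 and -1.71, and the clock-controlled factor Dbp 1.44 and -1.80. Dbp was opposed in the WT-labelled pair too (2.44 and -1.42). In the reverse direction were Cxcr1 (-3.39 and 2.66), the activin subunit Inhba (-1.49 and 2.42), the macrophage glycoprotein Gpnmb (-1.52 and 1.52) and the fatty acid-binding proteins Fabp1 (-1.5 and 1.78) and Fabp7 (-1.5 and 2.03). Normexp brought the scanner values of Gpnmb (0.70), Fabp1 (0.69) and Fabp7 (0.79) under 2-fold and left Neil3 at -1.01 and Cxcr1 at 1.15.

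Returning to the promoter letters printed above, motif shares were counted in each set of genes. The STAT6 letters were in 7.81% of 474 promoters of the higher table genes, against 4.92% of 14907 promoters of all genes tested there, and in 8.21% of 633 higher scanner promoters, against 5.06% of 15144. The NF-kB letters were in 2.95% and 3.32%, against 1.40% and 1.38%. Among chemokine genes, 5 of 23 promoters (21.7%) had the NF-kB letters and 1 the STAT6 letters. Neutrophil genes had the NF-kB letters in 0 of 23 and the STAT6 letters in 4 (17.4%), and mucus and goblet cell genes had either in 0 of 14. A CCAAT was in 22 of 29 cell cycle promoters (75.9%), against 35.59% for all genes tested in the table and 35.66% in the scanner files. A CHR was in 9 of the 29 (31.0%), against 12.32% and 12.55%. That share was not particular to cell cycle genes. Immature thymocyte genes had a CHR in 30.77%, chemokine genes in 26.09% and the higher table genes in 23.63%. Neutrophil genes had it in 8.70% and mucus and goblet cell genes in 7.14%. Of 65 promoters of the genes higher in both sources, 8 had the STAT6 letters (12.3%) and 5 the NF-kB letters (7.69%). In the lower genes the NF-kB letters were in 2.56% of 156 table promoters and 1.26% of 555 scanner promoters, and the STAT6 letters in 4.49% and 6.31%. These shares were not tested, and they cover only 250 bases before 1 start per gene.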

How the data were processed

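Per the labels, 4 lung arrays were made, 1 for each genotype and treatment, and groups were taken from their titles. Spot intensity in the deposited scanner files was written by Agilent Feature Extraction 11.5.1.1, per the file headers, with probe positions on mm9. The deposited value table holds a linear signal, and how the authors made it is not stated in the sources used here. Columns of other samples numbered 0. Both were analysed as log2 values computed from the deposited numbers: scanner values less each array's 75th percentile over its 43020 spots that are no controls, table values as they stand. A probe was above background by the scanner's own flag, or in the table when over 5 times the median of 153 negative controls. The probe with the highest mean over a source's 4 arrays stood for the gene. Of 39429 probes, 28747 were named by RefSeq accession and 2195 by symbol, and 8487 kept the file's name. An array at background was set at its floor (the lowest signal above background) to give "at least" folds. In the scanner files, where each spot has its own flag, this floor is not each probe's detection limit. There the fold can be smaller than the "at least" value.

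With 1 array per group no test was possible. The number of arrays limits the precision. "Stands apart" means that an array differs from each of the other 3 by 2-fold or more in one direction while those 3 lie within 2-fold.

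The genes named were Pla2g3, the 15 highest and lowest differences per source, up to 5 per direction measured on 1 side, up to 15 per direction shared and up to 10 opposed between sources, and up to 6 members and the defining markers of each of 44 lists. Clone, predicted, receptor-segment and olfactory names were not ranked. Some of the genes the rule names are not reported here. Further genes were chosen after their values were seen, as were 6 added lists. The members, lists and comparison were chosen with earlier results of these data known. Simulated arrays were used only to check that the code returns planted changes larger than 2-fold and removes an offset by quantile normalization. The background filter, the bounds and the choice of named genes were not part of that check. Alternatives were other normalizations (limma 3.58.1 in R 4.3.3, normexp offset 50), filters, a 3-fold rule, 3 times the spot error and the mean of probes. Python 3.11.15, pandas 2.3.3, numpy 2.4.6, scipy 1.17.1 and matplotlib 3.10.9 were used. Promoters were matched by symbol for 81 of 106 ranked genes.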

Additional observations from a re-analysis of the deposited data

Results flagged for a closer look

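The results here were picked out because the KO-labelled and WT-labelled pairs differed in opposite directions after challenge. With 1 array per group the difference between the pairs was not tested for any of them, and each value is a log2 difference, challenged minus control.

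Among gene lists, the heart muscle median in the table was -0.61 in the KO-labelled and 0.34 in the WT-labelled pair, and that of fat cell genes was -0.28 and 0.26. The immediate early median in the scanner files was 0.49 and -0.27.

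Among single genes of the table, Awat1 had -3.48 and 1.24, Dppa4, a gene of pluripotent cells, -1.81 and 1.70 (the former -0.45 with the mean of its probes, under 2-fold), and the chemokine Cxcl3 -1.44 and 1.32. Pate5 had 5.68 and -2.70 and Scgb1b7 had -3.05 and 1.61, both from values that include arrays at background, so these are not folds between measured levels. For Awat1 the KO-labelled control was the highest array in the table, and in the scanner files the gene was at background on all 4 arrays.

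In the scanner files, Ccl24 had 1.37 (0.86 under normexp) and -1.35, the macrophage protein Cd5l 1.94 and -1.85 and the brain-type fatty acid-binding protein Fabp7 2.03 (0.79 under normexp) and -1.02. In the table, Ccl24 and Cd5l were higher in both pairs.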

How the results depend on the processing

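No paired analysis was possible because each group has 1 array, and no array could be left out for the same reason. The gene counts of the KO-labelled pair moved by over 1.5 times under several settings. With both arrays above background the table had 487 higher and 115 lower genes and the scanner files 699 and 630. With no filter the table had 1304 and 604. With a 3-fold rule there were 358 and 191 in the table and 654 and 522 in the scanner files. With arrays at background set at the floor the lower table genes numbered 192, and with normexp correction the scanner counts were 426 and 290. Genes 2-fold in the same direction in both pairs numbered 182 in the table and 350 in the scanner files. They became 118 and 202 with both arrays above background, 77 and 125 at 3-fold, 314 in the table with no filter, and 116 in the scanner files with normexp. Genes 2-fold in the same direction in both sources numbered 120, 76 with both arrays above background and 36 at 3-fold. The higher filter or fold keeps fewer genes by its construction; the cause of the normexp change was not tested. Under quantile normalization alone the table had 681 higher and 393 lower genes.

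No list median of 2-fold or more and no ranked gene that was called changed sign under another normalization or the mean of probes. Of the 50 list medians in each source, 6 in the table and 2 in the scanner files took both signs, and their values as reported were at most 0.07 and 0.10 in size. Under normexp 13 of 50 scanner list medians moved by more than the repeat spread, such as neutrophil genes to 1.77, chemokines to 1.44, the IL-17, IL-1 and IL-6 group to 0.89, endothelial genes to 0.25 and immature thymocyte genes to -2.24. Of 106 ranked genes, 68 moved there. Signal near background limits all one-sided genes.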

Other observations

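Gene groups not described above add these values for the KO-labelled pair, with no test. Genes of the stefin A and cystatin-like cluster, protease inhibitors of myeloid cells, were at least 2-fold higher for 6 of 8 in the scanner files (median 2.71, and 1.21 in the WT-labelled pair) and for 0 of 8 in the table (median -0.01). The list was written after values were seen. Cstdc4, its first member by size, had -5.93 on the control and -1.19 on the challenged scanner array, and -3.0 on both in the table.

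Clock genes, also listed after values were seen, were higher for 3 of 18 in the table and 0 lower (median 0.22), while 1 was higher and 3 lower in the scanner files (median -0.43). The nuclear receptor Nr1d1 had -3.0 and -1.48 in the table and -0.26 and -1.12 in the scanner files. In the WT-labelled pair it differed by 1.16 and -0.46. The clock medians of the WT-labelled pair were 0.44 and -0.42, so both pairs had the same sign within a source and the sources were opposed. The hour of collection is not stated in the sources used here.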
